A study of Mus musculus with 4 samples.

Results

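The mitosis genes are 42 genes of the G2 and M phases of the cell cycle, named one by one: cyclins and their kinase, mitotic kinases, parts of the kinetochore, the spindle, the division furrow and the condensed chromosome. They were found by symbol among the 54532 genes of the tables, and each of the 42 symbols belonged to 1 Ensembl gene. They were measured in PMN-MDSC, the polymorphonuclear kind of myeloid-derived suppressor cell, which resembles a neutrophil and dampens T cell responses. The cells were purified from spleens of newborn C57BL/6 mice, with no genetic change named in the labels, and treated for 5 days. One group received NECA, a long-lived analogue of adenosine that binds its receptors, and the other DMSO, the solvent, with 2 libraries in each, numbered 1 and 2. Whether these were separate animals or cultures is not given in the labels, so p-values measure only the spread between the libraries, which may be technical.

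A cell enters mitosis when cyclin B and its kinase Cdk1 become active. Mitotic kinases and motor proteins then build the spindle, kinetochores tie the chromosomes to it, and the ubiquitin ligase called the anaphase-promoting complex, switched on by Cdc20, ends mitosis by destroying cyclin B. Transcripts of these genes accumulate in G2 and M and fade in cells that leave the cycle, so they are widely read as signs of dividing cells. In the neutrophil lineage they belong to the precursors, because mature neutrophils no longer divide. In bulk RNA, fewer cells of a type and less RNA per cell cannot be told apart.

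Many genes of this kind share promoter elements that are read once per cycle, among them CCAAT boxes, bound by the factor NF-Y, and the cell cycle genes homology region, with the core letters TTTGAA or TTCGAA. The promoters of 5 members are shown: Hmmr, Ccnb2 and Ccnb1, whose NECA libraries both lay above both DMSO libraries, Cdc20, which had the highest level per length, and Ttk, which had the lowest. Each is the 250 bases before the RefSeq start on GRCm38.p6, printed 5′ to 3′ on the gene's own strand. They lie at chr11:40733438-40733687 (minus strand) for Hmmr, chr9:70421555-70421804 (minus) for Ccnb2, chr13:100786487-100786736 (minus) for Ccnb1, chr4:118437344-118437593 (minus) for Cdc20 and chr9:83834439-83834688 (plus) for Ttk. Capitals mark the CCAAT box, and the letters TTTGAA or TTCGAA, on either strand, so that the box also appears as ATTGG.
Hmmr: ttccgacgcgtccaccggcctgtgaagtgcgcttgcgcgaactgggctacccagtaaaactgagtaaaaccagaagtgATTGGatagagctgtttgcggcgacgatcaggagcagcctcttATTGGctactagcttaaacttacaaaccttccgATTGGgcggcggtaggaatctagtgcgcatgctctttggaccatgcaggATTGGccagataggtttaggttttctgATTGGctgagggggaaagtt
Ccnb2: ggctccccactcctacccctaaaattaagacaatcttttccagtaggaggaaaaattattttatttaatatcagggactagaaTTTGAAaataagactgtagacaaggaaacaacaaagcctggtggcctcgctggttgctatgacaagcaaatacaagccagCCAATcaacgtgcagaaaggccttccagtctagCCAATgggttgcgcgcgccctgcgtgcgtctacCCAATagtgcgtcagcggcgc
Ccnb1: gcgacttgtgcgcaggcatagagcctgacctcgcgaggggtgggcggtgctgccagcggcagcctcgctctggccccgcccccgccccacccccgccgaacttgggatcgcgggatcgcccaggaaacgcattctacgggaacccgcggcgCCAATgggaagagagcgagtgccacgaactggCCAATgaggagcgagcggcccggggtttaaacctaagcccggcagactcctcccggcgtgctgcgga
Cdc20: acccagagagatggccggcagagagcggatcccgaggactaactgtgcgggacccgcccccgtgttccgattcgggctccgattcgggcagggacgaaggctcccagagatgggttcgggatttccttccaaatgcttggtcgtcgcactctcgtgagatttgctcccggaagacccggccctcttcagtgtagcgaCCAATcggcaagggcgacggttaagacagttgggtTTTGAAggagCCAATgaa
Ttk: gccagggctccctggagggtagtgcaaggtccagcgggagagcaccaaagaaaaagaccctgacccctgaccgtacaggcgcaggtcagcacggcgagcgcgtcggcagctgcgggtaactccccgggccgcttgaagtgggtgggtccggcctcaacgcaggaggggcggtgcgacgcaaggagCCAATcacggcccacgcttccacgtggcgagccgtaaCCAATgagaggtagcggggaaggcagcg

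CCAAT occurred 5 times before Hmmr, 3 times before Ccnb2 and 2 times before each of Ccnb1, Cdc20 and Ttk. TTTGAA occurred once before Ccnb2 and once before Cdc20, where it began 18 bases before the start. Promoters of 35 members were used, in 37 windows, and those of Ccna2, Tpx2, Smc4, Aurkb, Spc24, Stmn1 and Kif20a were not. Members on chromosome 18, where Kif20a lies, were left out of the search, a limit not set for all windows. Of the 37 windows, 29 (78.4%) held CCAAT, against 33.8% of all 32851 windows, and 14 (37.8%) held TTTGAA or TTCGAA, against 17.1%. A pair of CCAAT on the same strand with first bases 30 to 35 bases apart, a spacing chosen after the printed promoters were seen, was found in 8 of the 37 windows (21.6%), against 1.08% of all windows. The letters describe these windows and show neither binding nor a response to NECA.

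**Figure D1:**
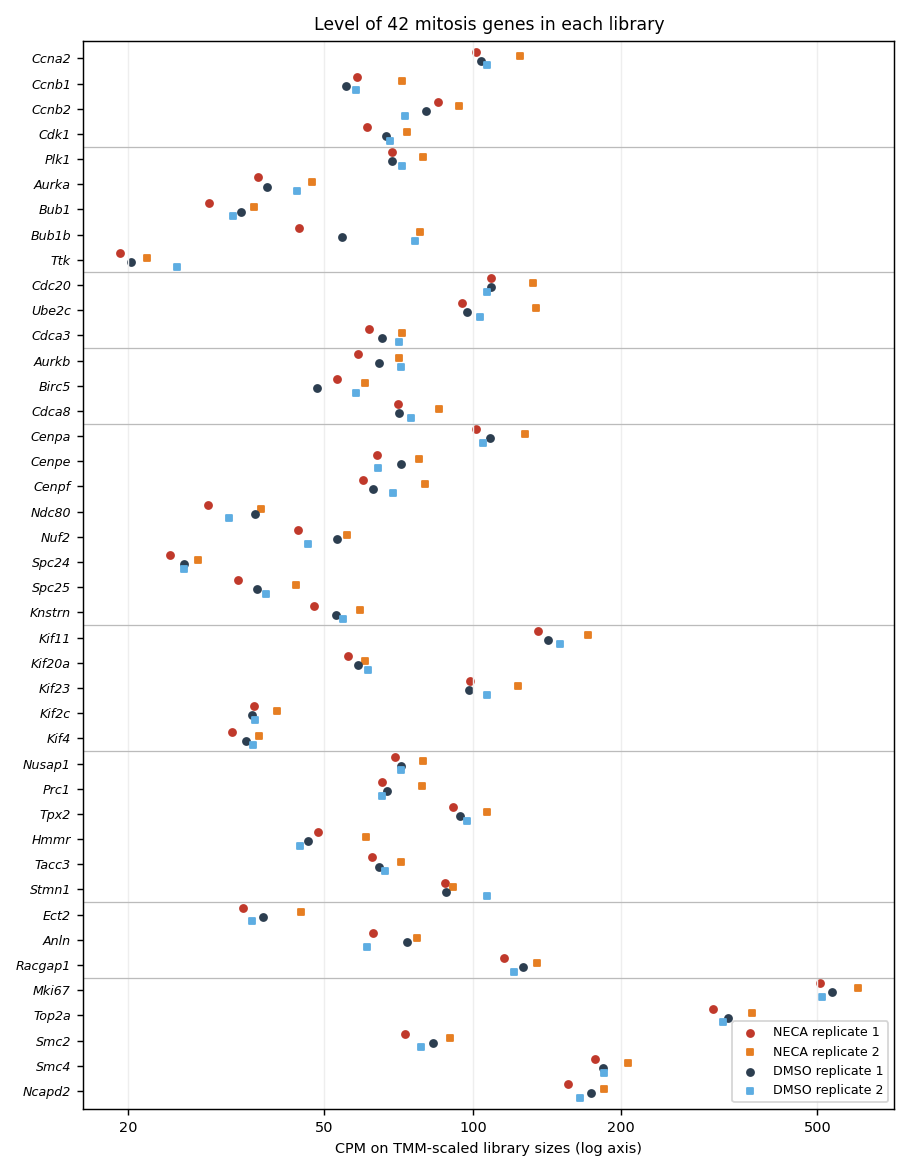
Level of each of the 42 mitosis genes in the 4 libraries, as CPM (counts scaled to library size, log axis) with 1 point per library; grey lines separate the roles, from cyclins at the top to chromosome structure at the bottom. NECA replicate 2 is the highest point for 38 of the 42 genes, against 25.1% of all genes tested, and NECA replicate 1 the lowest for 34, against 21.2%.

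All 42 mitosis genes were well covered in both groups. None had fewer than 338 counts in any library, so all 42 passed the filter on low counts, and all 42 had more reads than the median gene tested (13.3 CPM). CPM scale the counts to a fixed depth, on library sizes adjusted by TMM, a method that sets libraries to a common centre; they grow with the length of a gene and are used here to compare libraries. Means over the 4 libraries ran from 21.6 CPM for Ttk to 538 CPM for Mki67, with a median of 68.2 CPM. The 42 genes together held 0.347% and 0.421% of all counts in NECA replicates 1 and 2, and 0.388% and 0.387% in DMSO replicates 1 and 2. Mki67, Top2a and Smc4 drew the most reads and made up 27.4% of the summed CPM. The total counts were 15864120 to 18712625 per library.

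FPKM, which also divide by gene length, allow genes to be compared with each other, and there the order was another. Cdc20 led with a mean of 61.2 FPKM, followed by Ccnb2 (54.2 FPKM), Mki67 (53.5 FPKM), Stmn1 (48.6 FPKM) and Ube2c (41.3 FPKM). Cenpf and Ttk, at 4.39 FPKM each, were at the other end, and the median member had 15.2 FPKM. Mki67 and Cenpf both have long transcripts, with 10061 and 15433 annotated exon bases, against 1868 for Cdc20.

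None of the 42 mitosis genes passed the test for a change with NECA. By edgeR's quasi-likelihood test over 13083 genes, 0 members were higher and 0 were lower at adjusted p under 0.05, while 0.352% of all genes tested were higher and 0.978% lower. At an unadjusted p under 0.05 there were 2 of the 42 members, Hmmr and Ccnb2, both with higher levels in NECA libraries. Of the 13083 genes tested, 891 were higher and 1162 lower at that threshold. DESeq2 called 0 members. The adjusted p-values ran from 0.185 for Ccnb2 to 0.9996 for Spc24. Log2 fold changes ran from -0.14 for Ttk to 0.26 for Hmmr, with a median of 0.05 over the members and -0.01 over all genes tested. Of the 42 values 30 lay above 0 with TMM scaling, but 15 with library size alone as the scale. Of the 13083 genes tested, 6363 lay above 0 with TMM scaling and 4408 with library size alone.

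The 95% confidence interval of the fold change lay between a 1.5-fold fall and a 1.5-fold rise for 42 of the 42 genes, taken 1 gene at a time and with no adjustment for their number. The lowest bound was 0.681 of the DMSO level (Bub1b) and the highest 1.41 times it (Hmmr). The 1.5-fold limits were chosen after the intervals were seen. The number of genes inside them was 40 without NECA replicate 1, 41 without NECA replicate 2, 39 without DMSO replicate 1 and 40 without DMSO replicate 2.

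**Figure D2:**
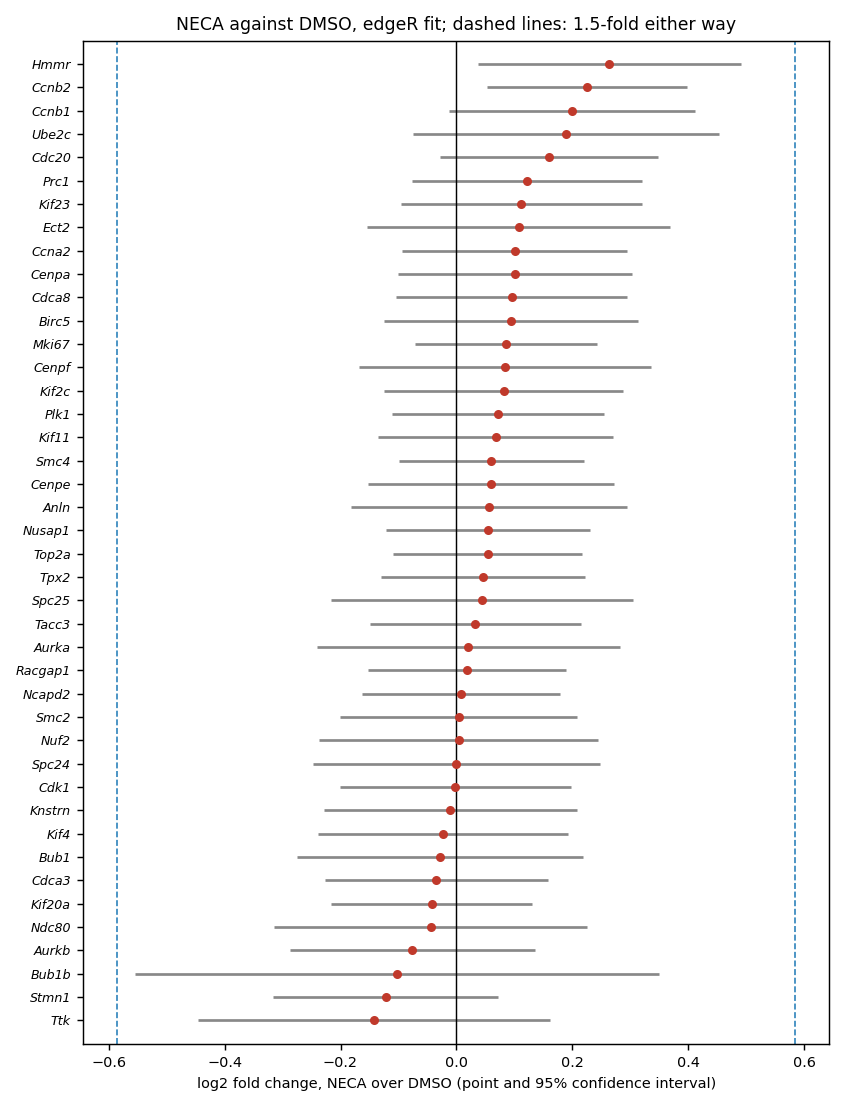
Log2 fold change of NECA over DMSO (horizontal axis) for each of the 42 mitosis genes, ordered by value; points are edgeR estimates from 2 libraries a group, bars are 95% confidence intervals and dashed lines mark 1.5-fold either way. The bars of 40 genes cross 0, those of Hmmr and Ccnb2 do not, and all 42 stay inside the dashed lines.

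A difference that ran through all 42 genes lay between the NECA libraries. All 42 genes were higher in NECA replicate 2 than in NECA replicate 1, by a median log2 ratio of 0.28 and a range from 0.06 (Stmn1) to 0.82 (Bub1b). Of all 13006 tested genes with a count in every library, 47.3% were higher in NECA replicate 2, and their median log2 ratio was -0.01. Between the DMSO libraries 26 of the 42 genes were higher in replicate 2, with a median log2 ratio of 0.04. Of the 13006 genes 50.5% were, with a median of 0.002. For 30 genes both DMSO libraries lay between NECA replicate 1 below and NECA replicate 2 above, a pattern that 5.91% of all genes tested had. The NECA libraries differed by more than the fold change between groups in 40 of the 42 genes, and the exceptions were Ccnb2 and Stmn1. The share of all genes tested with this pattern was not counted, and single libraries vary more than means of 2.

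Members were called when a NECA library was left out, and calls over all genes tested rose too. Without NECA replicate 1, the log2 fold change was 0.42 for Ube2c and Hmmr, 0.34 for Ccnb1 and 0.30 for Cdc20 and Ccnb2. It was 0.27 for Kif23 and 0.21 for Mki67. The median of the 42 values was then 0.18, against -0.0068 over all genes tested. Without NECA replicate 2, Bub1b stood at -0.56 and the median was -0.10, against -0.013 over all genes tested. With NECA reduced to 1 library, its spread is not seen and is assumed to be that of the DMSO libraries. Without DMSO replicate 1 or DMSO replicate 2, no member was called and the medians were 0.05 and 0.06.

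**Figure D3:**
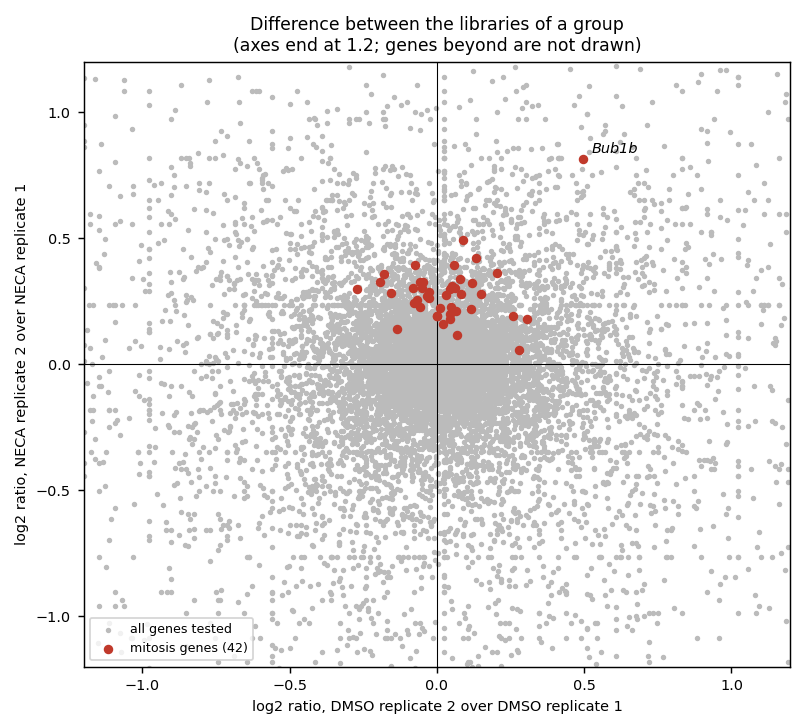
Difference between the 2 libraries of a group for each gene, as log2 ratio of replicate 2 over replicate 1, with DMSO on the horizontal axis and NECA on the vertical axis; red points are the 42 mitosis genes, grey points all genes tested. Every red point lies above 0 on the NECA axis, and they spread to both sides of 0 on the DMSO axis, with Bub1b highest on both.

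On the TMM scale the cyclins held 2 of the 3 members whose groups did not overlap. With library size alone as the scale, the groups of Ccnb1 and Hmmr overlapped. Ccnb2, a cyclin B that activates Cdk1, had 85.2 and 94.0 CPM in NECA replicates 1 and 2, against 80.2 and 72.9 CPM in DMSO replicates 1 and 2. Both NECA libraries were above both DMSO libraries, by a log2 fold change of 0.23 (SE 0.08, 95% interval 0.05 to 0.40, adjusted p = 0.185). Ccnb1, the main mitotic cyclin B, had 58.3 and 71.9 CPM with NECA, against 55.4 and 57.8 CPM with DMSO. Its NECA replicate 1 lay just above the DMSO libraries, and its log2 fold change was 0.20 (SE 0.10, adjusted p = 0.352). Its counts are uncertain because an annotated copy, Gm12856, shares 1294 bases with it at 98% identity or more. Ccna2, the cyclin A of S phase and G2, had 101 and 125 CPM with NECA, against 104 and 107 CPM with DMSO, so its groups overlapped. Ccna2 shares 510 exon bases with Exosc9 on the opposite strand, which leaves its counts uncertain. Cdk1, the kinase all 3 bind, had 61.0 and 73.7 CPM with NECA and 66.6 and 68.0 CPM with DMSO, and its log2 fold change was -0.0017.

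Over all members, on the TMM scale, both NECA libraries lay above both DMSO libraries in 3 of 42 (7.14%), against 22.4% of all genes tested. Both lay below in 0 of 42, against 24.3% of all genes tested. The third of the 3 was Hmmr, a microtubule-binding protein of the spindle poles and a hyaluronan receptor. It had 48.5 and 60.7 CPM with NECA, against 46.3 and 44.5 CPM with DMSO. Its log2 fold change of 0.26 (SE 0.10, 95% interval 0.04 to 0.49, adjusted p = 0.241) was the highest of the 42, and it stood at 0.095 without NECA replicate 2.

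Among the mitotic kinases and the spindle checkpoint, Plk1, which drives entry into mitosis and centrosome maturation, had 68.5 and 79.3 CPM with NECA, against 68.7 and 71.9 CPM with DMSO. Ttk, the kinase (also called Mps1) that starts the checkpoint, had 19.3 and 21.8 CPM with NECA, against 20.3 and 25.1 CPM with DMSO. Its value of -0.14 (SE 0.14, 95% interval -0.45 to 0.16) was the lowest of the 42, and its highest library was DMSO replicate 2. Bub1b, which encodes the checkpoint protein BubR1, had 44.3 and 78.0 CPM with NECA, against 54.3 and 76.5 CPM with DMSO. In both groups replicate 2 was the higher library, by log2 ratios of 0.82 with NECA and 0.49 with DMSO, the largest differences between replicates of any member. The fold change of Bub1b was -0.10 (SE 0.21, the largest SE of the 42). Aurka, a centrosome kinase, and Bub1, a checkpoint kinase, stood at 0.02 and -0.03.

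Cdc20, the activator of the anaphase-promoting complex, had 109 and 133 CPM with NECA, against 109 and 107 CPM with DMSO. Ube2c, the ubiquitin-conjugating enzyme that works with that complex, had 95.2 and 134 CPM with NECA, against 97.3 and 104 CPM with DMSO. In both genes NECA replicate 1 lay at the level of the DMSO libraries and NECA replicate 2 above them. Their log2 fold changes were 0.16 (SE 0.09, adjusted p = 0.407) and 0.19 (SE 0.12, adjusted p = 0.506). The counts of Ube2c are uncertain where 592 exon bases overlap Tnnc2 on the opposite strand, because the use of strand in counting is not given in the sources used here. Cdca3, which helps to degrade the mitotic inhibitor Wee1, stood at -0.03.

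The chromosomal passenger complex corrects faulty attachments between chromosomes and spindle. Its kinase Aurkb had 58.4 and 70.8 CPM with NECA, against 64.5 and 71.5 CPM with DMSO. Its subunit Cdca8 (borealin) had 70.6 and 85.5 CPM with NECA, against 70.9 and 75.0 CPM with DMSO. The groups overlapped in both genes, at log2 fold changes of -0.08 and 0.10. Birc5 (survivin), the subunit that binds histone H3 at centromeres, stood at 0.09, with 53.0 and 60.5 CPM with NECA and 48.4 and 57.8 CPM with DMSO.

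In the 8 centromere and kinetochore genes the log2 fold changes spanned -0.04 to 0.10. Cenpa, the histone H3 variant that marks the centromere and the one of them with the most reads, had 102 and 127 CPM with NECA, against 108 and 105 CPM with DMSO. The DMSO libraries thus lay between the NECA libraries. The 4 genes of the Ndc80 complex, which grips microtubules, gave -0.04 for Ndc80, 0.0039 for Nuf2, -0.0003 for Spc24 and 0.04 for Spc25. The kinetochore motor Cenpe stood at 0.06 and Cenpf at 0.08, and Knstrn, a kinetochore and spindle protein, at -0.01. Summed, the 8 genes had 404 and 509 CPM with NECA, against 447 and 435 CPM with DMSO.

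Of the 5 mitotic kinesins, Kif11 (Eg5), the motor that pushes the spindle poles apart, had 135 and 171 CPM with NECA, against 142 and 150 CPM with DMSO. Kif23 (MKLP1), a motor of the midzone between the separating chromosomes, had 98.5 and 123 CPM with NECA, against 98.2 and 107 CPM with DMSO. Both had overlapping groups and values of 0.07 and 0.11. The midzone motor Kif20a, the depolymerase Kif2c and the X-linked chromokinesin Kif4 stood at -0.04, 0.08 and -0.02. Kif20a is uncertain in 1271 exon bases shared with Cdc23 on the opposite strand, and Kif4 in 832 shared with Pdzd11.

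Among the spindle proteins, Tpx2, which activates Aurka and seeds microtubules, had 91.1 and 107 CPM with NECA, against 94.2 and 97.2 CPM with DMSO. Stmn1 (stathmin), which takes up free tubulin and is also made outside mitosis, had 87.8 and 91.4 CPM with NECA, against 88.0 and 107 CPM with DMSO. DMSO replicate 2 was its highest library, and the other 3 lay close together. Its log2 fold change was -0.12 (SE 0.09, adjusted p = 0.568), with counts uncertain beside the copy Gm11223 (450 bases). The microtubule bundlers Nusap1 and Prc1 stood at 0.06 and 0.12, and Tacc3, a protein of the spindle fibres, at 0.03. All 3 share exon bases with a gene on the opposite strand, 172 with Oip5 for Nusap1, 911 with Rccd1 for Prc1 and 289 with Tmem129 for Tacc3, and are uncertain there. Of the 42 members 12 share at least 100 exon bases with another gene, and the same caution holds for Cdca8 (232 bases), Plk1 (156), Knstrn (123) and Top2a (122), and for Mki67 and Cenpe, which have copies of 216 and 198 bases.

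The cytokinesis genes serve the cleavage furrow, where Ect2 activates the GTPase RhoA, Racgap1 binds Ect2 and Kif23, and anillin (Anln) is a scaffold. Racgap1 had 115 and 135 CPM with NECA, against 126 and 121 CPM with DMSO, with both DMSO libraries between the NECA libraries. The values were 0.02 for Racgap1, 0.11 for Ect2 and 0.06 for Anln. Of the members that were lower in DMSO replicate 2 than in DMSO replicate 1, Anln differed most, at 73.5 CPM in replicate 1 and 60.9 CPM in replicate 2.

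The 5 genes of chromosome structure drew the most reads of any role, 1219 and 1453 CPM in sum with NECA and 1304 and 1260.5 CPM with DMSO. Mki67, which encodes the proliferation marker Ki-67 that coats mitotic chromosomes, had 506 and 603 CPM with NECA, against 534 and 510 CPM with DMSO. Its log2 fold change was 0.09, with the smallest SE of the 42 (0.07) and an interval from -0.07 to 0.24. Top2a, the topoisomerase that untangles sister chromatids, had 308 and 369 CPM with NECA, against 329 and 322 CPM with DMSO (log2 fold change 0.05). Smc4, a condensin subunit, had 177 and 207 CPM with NECA, against 183 and 185 CPM with DMSO (0.06). Ncapd2, a further condensin subunit, had 156 and 185 CPM with NECA, against 174 and 165 CPM with DMSO (0.01). In all 4 genes the DMSO libraries lay between NECA replicate 1 and NECA replicate 2. Smc2, the partner of Smc4, stood at 0.0040. Ncapd2 shares 237 exon bases with the small RNA gene Scarna10 on the same strand, and its counts are uncertain there.

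A list of 74 further mitotic genes that are not among the 42 also gave no call. All 74 were tested, 0 were higher and 0 lower, and 51 of the 74 values lay above 0, with a median log2 fold change of 0.067. Without NECA replicate 2 only 23 lay above 0 and the median was -0.066, without NECA replicate 1 it was 0.19 with 62 above 0 and 2 called higher, and with library size alone -0.0049 with 36 above 0. At an unadjusted p under 0.05 there were 2 higher and 0 lower. Summed, they had 2997 and 3452 CPM with NECA, against 3075 and 3016 CPM with DMSO, so that NECA replicate 2 was again the highest library. Hjurp, the chaperone that loads Cenpa onto centromeres, drew the most reads, at 643 and 684 CPM with NECA against 596 and 557 CPM with DMSO. Its value of 0.20 (SE 0.05) missed the threshold by edgeR's test (adjusted p = 0.0912) and passed by DESeq2 (adjusted p = 0.0254), and without NECA replicate 1 it also passed by edgeR's test (adjusted p = 0.00319). Incenp, the scaffold of the chromosomal passenger complex, had 133 and 154 CPM with NECA and 149 and 147 CPM with DMSO.

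Of 22 tested regulators of cell cycle transcription, 0 were higher and 0 lower (median 0.04). Foxm1, a factor that switches on G2 and M genes, had 91.1 and 105 CPM with NECA, against 97.8 and 92.2 CPM with DMSO, and Mybl2, its partner in that program, had 13.9 and 14.2 CPM with NECA, against 13.6 and 16.9 CPM with DMSO. Most reads fell on Tfdp1, the partner of E2F factors (426 and 429 CPM with NECA, 395 and 399 CPM with DMSO, adjusted p = 0.324), and E2f2 (366 and 351 CPM with NECA, 314 and 321 CPM with DMSO, adjusted p = 0.127). The counts of Tfdp1 are uncertain beside the copy Gm7390 (755 bases). Foxm1 and Mybl2 were named after their values were seen.

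Of the 9 cyclins and kinases of G1 and S, 0 were higher and 1 was lower (median -0.07). The lower gene was Ccnd2, a cyclin D that carries growth signals into the cycle, at 2.36 and 1.74 CPM with NECA against 7.79 and 5.47 CPM with DMSO. Its log2 fold change was -1.68 (SE 0.30, adjusted p = 0.0201), and without DMSO replicate 1 it was -1.40 and no longer passed (adjusted p = 0.171). Its counts are uncertain beside Gm43126, which overlaps 372 of its exon bases on the opposite strand. Ccnd3, also a cyclin D, had 826 and 809 CPM with NECA against 725 and 732 CPM with DMSO, a value of 0.17 that edgeR's test did not call (adjusted p = 0.0964). DESeq2 called Ccnd3 (adjusted p = 0.0286), whose counts are uncertain in 361 exon bases shared with Bysl on the opposite strand. Cdk2 had 185 and 200 CPM with NECA and 194 and 184 CPM with DMSO. Of 14 tested CDK inhibitors and genes of cell cycle exit, 0 were higher and 0 lower. Cdkn2d, an inhibitor of Cdk4 and Cdk6, had 229 and 241 CPM with NECA, against 201 and 200.1 CPM with DMSO (value 0.23, adjusted p = 0.0792 by edgeR's test). DESeq2 called it (adjusted p = 0.0318), as did edgeR's test without NECA replicate 1 (adjusted p = 0.0149). Btg1, an antiproliferative gene, had 302 and 300 CPM with NECA, against 298 and 349 CPM with DMSO, with a copy, Gm14519, of 312 bases.

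The DNA replication genes did not follow the order of the libraries that the mitosis genes had. Of 19 tested, 0 were higher and 0 lower, with 14 values below 0 and a median of -0.11. The median was -0.20, with 3 genes called lower, without NECA replicate 1, -0.037 without NECA replicate 2, -0.14 without DMSO replicate 1 and -0.015, with 10 values below 0, without DMSO replicate 2. Their summed level was 849 and 793 CPM with NECA, against 822 and 879 CPM with DMSO, so that NECA replicate 2, the highest library for the mitosis genes, was the lowest here. The summed level of the mitosis genes was 4.20 and 5.45 times that of the replication genes in NECA replicates 1 and 2, and 4.58 and 4.32 times in DMSO replicates 1 and 2. Dnmt1, which copies DNA methylation at the fork, had 148 and 148 CPM with NECA and 136 and 137 CPM with DMSO, and Rrm2, which makes deoxynucleotides and has a copy, Gm48445, of 193 bases, 99.3 and 105 CPM with NECA and 101 and 107 CPM with DMSO.

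**Figure D4:**
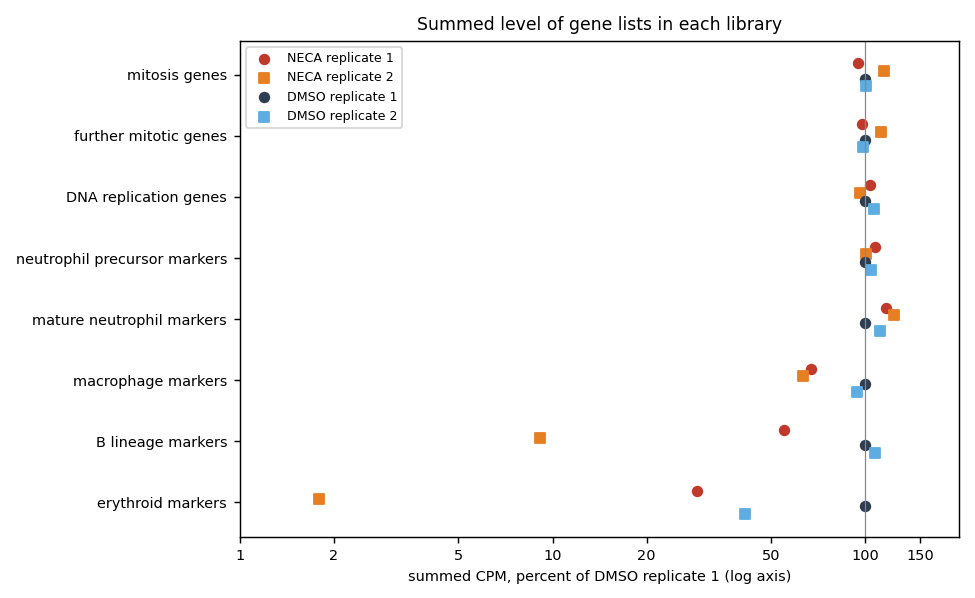
Summed CPM of gene lists in each library, as percent of DMSO replicate 1 (log axis). The mitosis genes stand between 94.8% and 115%, while B lineage markers reach 9.14% and erythroid markers 1.79% in NECA replicate 2.

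The summed level of the mitosis genes was 3569.9 and 4321 CPM in NECA replicates 1 and 2, against 3765 and 3797 CPM in DMSO replicates 1 and 2. Transcripts that mark the labelled cell type were abundant: the summed level of 10 markers of mature neutrophils was 58180.5 and 61927 CPM with NECA, against 49960 and 55874 CPM with DMSO, and that of 6 markers of immature neutrophils 86221 and 83173 CPM with NECA, against 80581 and 79829 CPM with DMSO. Of the 10 mature markers 2 were higher and 0 lower by edgeR's test, the metalloproteases Mmp8 (log2 fold change 0.23, adjusted p = 0.0254) and Mmp9 (0.23, adjusted p = 0.0126), and 9 of the 10 values lay above 0, 8 of them at an unadjusted p under 0.05. The number called higher was 4 with DESeq2, 7 with the replicate block, 7 without the low-count filter and 0 with library size alone or limma. It was 7 and 4 without NECA replicate 1 or 2, and 0 and 3 without DMSO replicate 1 or 2. Of the 6 immature markers 0 were called by edgeR's test, and 2 had an unadjusted p under 0.05, both higher. The number called higher was 1 with DESeq2 or with its size factors and 2 with the replicate block or without the low-count filter. It was 0 with library size alone or limma. Of 9 markers of neutrophil precursors, the dividing stage of the lineage, 8 were tested, 0 were higher and 0 lower by edgeR's test. Of the 8 values 7 lay below 0 and 1 above, with a median log2 fold change of -0.20. At an unadjusted p under 0.05 by that test 2 were lower and 1 was higher. The median was -0.32 and -0.24 without NECA replicate 1 or 2, and -0.53 and -0.033 without DMSO replicate 1 or 2. The sum of the 9 markers was 1216 and 1140.3 CPM with NECA and 1135 and 1180 CPM with DMSO, most of it from Cebpe and Fcnb. Mpo, a granule enzyme of the earliest precursors, was at 6.15 and 3.49 CPM with NECA, against 6.79 and 15.4 CPM with DMSO, and Sox4 had 0 counts in NECA replicate 2.

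Macrophage markers fell with NECA, and the sums for other cells were lower too. Of 13 macrophage markers 11 were lower and 0 higher by edgeR's test, with sums of 801 and 755 CPM with NECA, against 1194 and 1122 CPM with DMSO. Of 10 tested B lineage markers (13 listed) 1 was lower and 0 higher, with sums of 74.4 and 12.4 CPM with NECA, against 136 and 146 CPM with DMSO. Ebf1 and Rag1, which mark B cell precursors, had 0 counts in NECA replicate 2. Of 12 erythroid markers 0 were called, and 9 had an unadjusted p under 0.05, all lower, with sums of 344 and 21.1 CPM with NECA, against 1184 and 489 CPM with DMSO. The B lineage and erythroid sums were lowest in NECA replicate 2. Erythroid and B lineage precursors also divide, and their part in the values of the mitosis genes was not tested. The number called lower was 10 of the B lineage and 8 of the erythroid markers when NECA replicate 1 was left out, 7 and 6 when NECA replicate 2 was, 7 and 7 with the replicate block, 9 and 8 without the low-count filter, and 0 and 0 by DESeq2, by limma and without either DMSO library. Of the macrophage markers 8 to 12 were called lower when a library was left out, 12 by DESeq2 and 0 by limma. The T and NK cell markers summed to 17.6 and 17.8 CPM with NECA, against 26.0 and 30.6 CPM with DMSO, with Cd3e at 0 counts in both NECA libraries. Stem and progenitor markers summed to 27.7 and 22.0 CPM with NECA, against 31.2 and 34.6 CPM with DMSO, with Mecom at 0 counts in all 4 libraries. The dendritic cell sum was 24.4 and 10.7 CPM with NECA, against 34.3 and 30.3 CPM with DMSO. Markers of basophils, mast cells and eosinophils summed to 59.1 and 34.4 CPM with NECA, against 70.1 and 85.3 CPM with DMSO, with 1 of 7 tested called lower, and those of megakaryocytes and platelets to 5.00 and 4.72 CPM with NECA, against 8.15 and 6.21 CPM with DMSO. The part of other cells in the values of the mitosis genes was not tested.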

How the data were processed

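RNA of 4 libraries was made into cDNA with SMARTer chemistry, amplified by PCR and sequenced as read pairs, per the labels' protocols. The authors deposited, per the file headers, 1 whole-number read count and 1 FPKM value per Ensembl gene and library. The submitters' processing notes list HISAT, StringTie and edgeR, without versions, and mm10 (GRCm38) as the build. Which program counted the reads, on which annotation, how multi-mapping reads were handled and whether strand was used is not given in the sources used here. The FPKM were the counts divided by 1 length per gene and 1 scale per library (largest relative departure 4.65e-09 over 9004 genes).

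Counts were filtered with filterByExpr of edgeR 4.0.16 (minimum count 10), scaled by TMM and compared between NECA and DMSO by edgeR's quasi-likelihood test in R 4.3.3, with Benjamini-Hochberg adjustment over 13083 genes, a threshold of 0.05 and 2 residual degrees of freedom. Standard errors were taken from the fold change and its F statistic, and 95% intervals use the moderated degrees of freedom. The script was tested on simulated data. Depth was 15864120 to 18712625 counts per library, and PCR copies were not told apart, so precision is limited by more than counting. The libraries of a group differed beyond sampling noise (chi-square per degree of freedom 5.39 for NECA and 6.81 for DMSO), so each was counted as 1 sample. PCR copies also give such an excess, so it does not show that the libraries are separate biological replicates.

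The members and lists were chosen with earlier results of these data known, and the lists were not tested as sets. Values in every library are given for any called member, the 12 most abundant members, the 4 highest and 4 lowest fold changes and the most abundant member of each role (21 genes), and for called genes and the 2 most abundant genes of each pathway list; further members are given where they complete a complex. Marker lists are given mainly as sums. Positions, exon overlaps and copies (98% identity over at least 150 bases) come from GENCODE M21 on GRCm38, and promoters from RefSeq. Ahsp, a listed erythroid gene, was not used here. Alternatives were DESeq2 1.42.0, its size factors, library size alone, 2 other filters, limma 3.58.1 on log2(FPKM + 0.1), a replicate block and leaving out each library.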

Additional observations from a re-analysis of the deposited data

How the results depend on the processing

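No mitosis gene was called, higher or lower, under any alternative that kept all 4 libraries; the smallest adjusted p among them was 0.0963 (Ccnb2, without the low-count filter). Leaving out each library in turn gave 0 to 7 higher and 0 to 1 lower members, medians from -0.10 to 0.18, and 39 to 41 genes with intervals inside 1.5-fold. The median was -0.018 with library size alone and 0.034 with genes of at least 5 CPM in 2 libraries. Over all genes tested these medians were -0.079 and -0.0035. Library size alone turned the sign of 15 of the 42 members and the stricter filter that of 5. Among the genes picked by the naming rule alone, the first turned Plk1 (-0.00073), Kif11 (-0.0041), Tpx2 (-0.026), Racgap1 (-0.054), Top2a (-0.018), Smc4 (-0.012), Ncapd2 (-0.064) and Cdk2 (-0.048), and the second Racgap1 (-0.0028) and Ncapd2 (-0.012). Without NECA replicate 1, NECA replicate 2, DMSO replicate 1 or DMSO replicate 2, the sign turned in 10, 25, 5 and 15 members. Of the same genes, those that turned ran from -0.22 to 0.059 for Aurkb, -0.56 to 0.25 for Bub1b, -0.055 to 0.24 for Ccna2, -0.048 to 0.23 for Cdca8, -0.070 to 0.26 for Cenpa, -0.11 to 0.23 for Kif11, -0.057 to 0.27 for Kif23, -0.046 to 0.21 for Mki67, -0.12 to 0.13 for Ncapd2, -0.037 to 0.17 for Plk1, -0.099 to 0.13 for Racgap1, -0.055 to 0.17 for Smc4, -0.25 to 0.028 for Stmn1, -0.082 to 0.18 for Top2a, -0.071 to 0.16 for Tpx2, -0.28 to 0.022 for Ttk, -0.077 to 0.42 for Ube2c, -0.16 to 0.052 for Incenp, -0.033 to 0.079 for Cdk2, -0.21 to 0.018 for Btg1 and -0.067 to 0.019 for Rrm2. The cause was not tested. NECA replicate 2 exceeded NECA replicate 1 in all 42 genes under TMM, DESeq2 size factors and library size alone (an alternative added after seeing the data), and was the highest library for 38, 38 and 32 of them. Under TMM it was the highest library for 25.1% of all genes tested. Hjurp, Ccnd3 and Cdkn2d passed with DESeq2 and without the low-count filter, and Ccnd2 did not pass with limma (-1.32, adjusted p = 0.247).

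Over all genes, 46 were higher and 128 lower. The numbers were 21 and 217 with library size alone, 285 and 590 without the low-count filter, 143 and 157 with DESeq2, 1 and 0 with limma on FPKM (where 859 and 1002 genes had an unadjusted p under 0.05), and 8 to 227 and 45 to 594 without one library. The replicate block gave 123 higher and 298 lower genes but 0 and 0 members. Whether same-numbered libraries were paired is not given in the labels, so the block is an assumption. Over genes, deviations of same-numbered libraries correlated at r = 0.02, a single value that cannot settle the pairing for every gene.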
